A study of Homo sapiens with 12 samples.

Results

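ATP-binding cassette (ABC) genes were taken as every row of the KMS11 expression table whose symbol is ABC, a subfamily letter from A to G and a number. The rule found 46 of 29607 genes. Of these, 23 reached 1 TPM in at least 2 of 12 libraries and 23 did not. TPM is a level per unit of transcript length, with 1 fixed total for every library. KMS11 is an established human multiple myeloma line. Its cells carried 1 of 2 hairpins against the kinase STK17B (sh1 and sh2, genotype STK17B shRNA), received an STK17B inhibitor (labelled wild type), or carried an STK17B cDNA (overexpression). The controls were a control hairpin (shControl) and a control vector (Vector), both labelled wild type and untreated. Each group had 2 libraries. The labels name neither the inhibitor nor its dose or time. The design text speaks of vehicle in control-hairpin cells, but no group is labelled so. The inhibitor was therefore set against shControl, and effects of solvent and compound cannot be told apart. The labels do not say whether replicates were separate cultures or whether the transduced cells were clones, so p-values measure only the spread between these libraries, which may be technical.

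ABC proteins bind and hydrolyse ATP in paired nucleotide-binding domains. Most use it to move lipids, peptides, metabolites or drugs across a membrane, while subfamilies E and F have no membrane domain and work on ribosomes. The family is best known in cancer for efflux pumps that lower the level of drugs inside the cell, P-glycoprotein (ABCB1) above all. Many subfamily A and G members export lipids, subfamily D members work at peroxisomes and lysosomes, several subfamily B members sit in mitochondria, and subfamily C holds the multidrug resistance-associated proteins. The title of the study names drug resistance as one of its subjects. The comparisons asked whether transcript levels of these genes differed when STK17B was lowered, inhibited or raised.

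STK17B had 12.7 and 10.9 TPM with sh1 and 14.7 and 14.5 TPM with sh2, against 27.1 and 27.4 TPM in shControl. It had 24.9 and 22.4 TPM with the inhibitor (-0.20, adjusted p = 0.09; not called), and 94.1 and 84.5 TPM with overexpression, against 28.2 and 31.5 TPM in Vector. With the inhibitor STK17B was called lower under median-of-ratios scaling (-0.26, adjusted p = 0.017), under quantile normalization (-0.29, adjusted p = 0.014) and when the shControl and Vector columns were exchanged (-0.32, adjusted p = 0.01). All 8 plasma cell markers reached 1 TPM in some library and summed to 1409 to 2321 TPM, of which XBP1 alone had 824 to 1280 TPM. CD38 was near the floor, at 0.127 to 1.47 TPM. Its mean was 0.555 TPM in shControl, 0.520 TPM in Vector and 1.36 TPM with the inhibitor. The T and NK, myeloid, fibroblast and erythroid lists summed to at most 7.91 TPM in any library, and the epithelial list to 9.99 to 15.7 TPM. In the T and NK list CD3E ran from 3.23 to 7.74 TPM, while CD3D was listed at 0 throughout. The plasma cell sum was 1409 to 1417 TPM with sh1, 1672 to 1681 TPM with sh2 and 1557 to 1593 TPM with the inhibitor, against 2116 to 2139 TPM in shControl. It was 1923 to 1938 TPM with overexpression, against 2315 to 2321 TPM in Vector. Its part in the results below was not tested. Between 30 and 35 ABC genes were above 0 in a library, and together they summed to 564 to 642 TPM.

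The windows around the start of 4 genes are shown first. ABCA1 fell furthest with the inhibitor, ABCB6 changed in opposite directions with the hairpins and the cDNA, and ABCE1 and ABCF2 belong to the genes of translation that were higher with the inhibitor. The sequences are from RefSeq (GRCh38.p14) and run 5′ to 3′ on the gene's strand, from 250 bases before the start to 50 bases after it. Capitals mark 3 motifs searched on both strands: the E-box CACGTG, the cAMP response element TGACGTCA and the CCAAT box, CCAAT. The GC box GGGCGG was searched too and is not marked.
ABCA1, chr9:104928106-104928405, minus strand: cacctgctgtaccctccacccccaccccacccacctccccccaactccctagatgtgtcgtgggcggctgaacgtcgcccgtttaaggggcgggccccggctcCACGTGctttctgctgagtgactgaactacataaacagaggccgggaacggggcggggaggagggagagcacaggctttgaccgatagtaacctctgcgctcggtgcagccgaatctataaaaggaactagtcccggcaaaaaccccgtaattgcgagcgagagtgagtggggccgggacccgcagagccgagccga
ABCB6, chr2:219218909-219219208, minus strand: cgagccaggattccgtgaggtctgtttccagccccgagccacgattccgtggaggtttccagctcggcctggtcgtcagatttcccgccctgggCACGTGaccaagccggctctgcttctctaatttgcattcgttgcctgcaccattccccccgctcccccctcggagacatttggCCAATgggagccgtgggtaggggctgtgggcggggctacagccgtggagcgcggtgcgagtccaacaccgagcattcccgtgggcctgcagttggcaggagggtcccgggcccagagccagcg
ABCE1, chr4:145098061-145098360, plus strand: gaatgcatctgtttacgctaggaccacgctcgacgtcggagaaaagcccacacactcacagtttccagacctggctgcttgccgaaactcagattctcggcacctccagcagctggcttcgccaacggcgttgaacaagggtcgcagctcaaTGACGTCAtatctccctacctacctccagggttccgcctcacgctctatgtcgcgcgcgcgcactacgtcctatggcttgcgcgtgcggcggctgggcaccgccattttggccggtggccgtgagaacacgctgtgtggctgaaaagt
ABCF2, chr7:151227156-151227455, minus strand: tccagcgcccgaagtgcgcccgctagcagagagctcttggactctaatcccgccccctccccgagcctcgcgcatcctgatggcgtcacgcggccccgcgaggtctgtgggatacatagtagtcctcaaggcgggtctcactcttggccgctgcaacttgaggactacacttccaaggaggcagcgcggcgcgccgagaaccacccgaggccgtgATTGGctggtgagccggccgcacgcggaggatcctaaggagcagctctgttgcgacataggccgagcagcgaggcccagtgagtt
The ABCA1 window held an E-box that began 147 bases before the start. The ABCB6 window held an E-box that began 156 bases before the start and a CCAAT box that began 73 bases before it. ABCE1 held the cAMP response element 98 bases before the start, and ABCF2 held a CCAAT box, on the opposite strand, 35 bases before it. The E-box was in 7.26% of 35116 RefSeq windows of this length, the cAMP response element in 1.85% and the CCAAT box in 34.6%. Of the 23 genes, 19 had a window, with 27 windows in all. The E-box was in 7 of the 27, which belonged to ABCA1, ABCB6, ABCB9, ABCC10, ABCF1 and ABCG2. The CCAAT box was in 7, from 6 genes, and the cAMP response element in 1, that of ABCE1. The unmarked GC box was in 20, from 17 genes, beside 44.95% of all windows and 48.3% of all genes with a window. Counted by gene, with at least 1 window that held the motif, the E-box was in 8.77% of all 27305 RefSeq genes with a window, the CCAAT box in 39.7% and the cAMP response element in 2.25%. These are matches of letters and not measured sites, and binding was not measured.

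The highest median levels belonged to proteins that do not transport. ABCF2 had a median over the 12 libraries of 107 TPM, ABCF1 of 74.6 TPM and ABCE1 of 58.2 TPM. ABCF1 takes part in translation initiation and ABCE1 splits ribosomes after termination. The sterol exporter ABCG1 (54.7 TPM), the drug and glutathione-conjugate pump ABCC1 (50.5 TPM), the mitochondrial protein ABCB10 (40.97 TPM) and ABCF3 (39.8 TPM) followed. ABCF1, ABCG1 and ABCC1 each overlapped with ABCE1 in their range over libraries. A middle tier included ABCB6 (20.7 TPM), ABCB8 (19.2 TPM), ABCA3 (13.04 TPM), ABCD3 (11.4 TPM), ABCD4 (10.5 TPM) and ABCC10 (10.1 TPM). Lower still were ABCC5 (9.64 TPM), ABCA7 (7.02 TPM), ABCC4 (6.59 TPM), ABCB9 (4.52 TPM), ABCA1 (3.43 TPM), ABCD2 (1.81 TPM), ABCA5 (1.67 TPM) and ABCG2 (0.952 TPM). By subfamily, 4 of 12 genes reached the level in A, 5 of 9 in B, 4 of 12 in C, 4 of 4 in D, 1 of 1 in E, 3 of 3 in F and 2 of 5 in G.

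**Figure D1:**
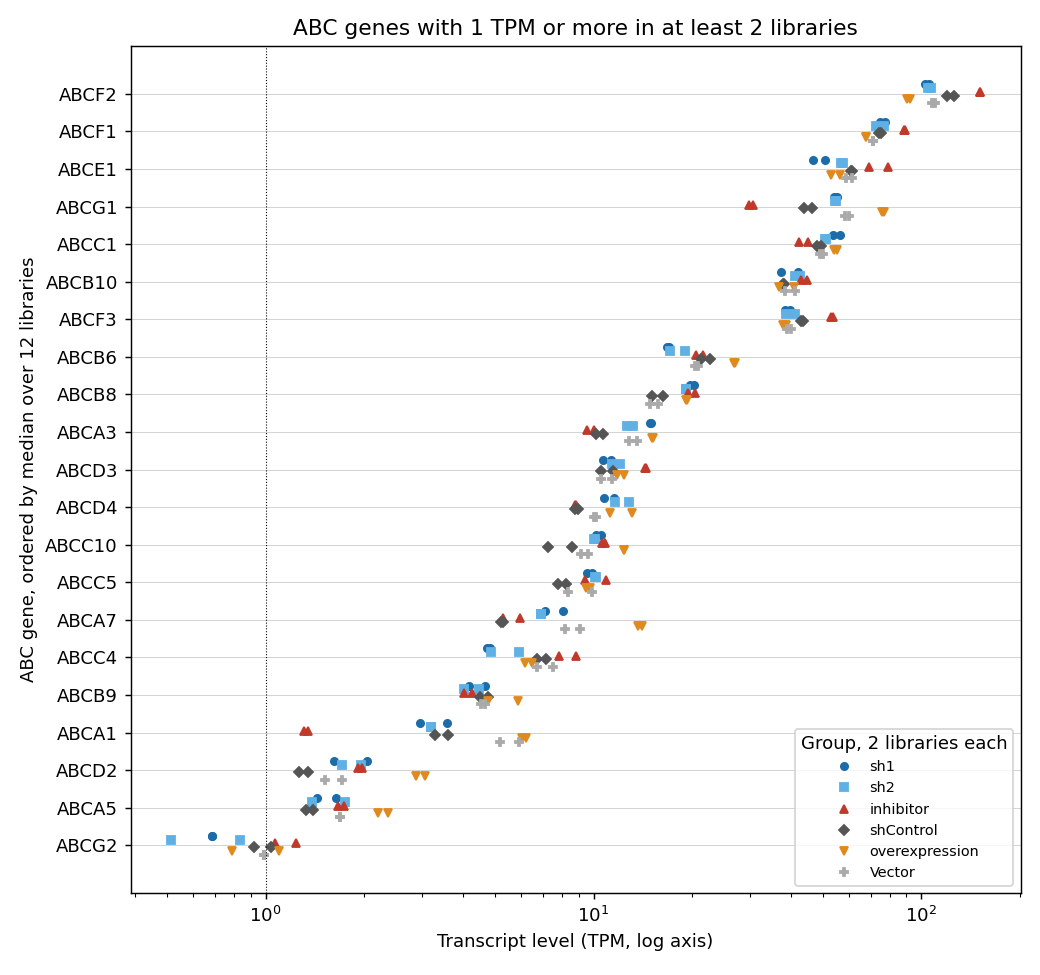
Transcript level in TPM (log axis) of 21 of the 23 ABC genes that reached 1 TPM in at least 2 libraries, with 1 symbol per library. Levels run from 0.514 TPM for ABCG2 in an sh2 library to 151 TPM for ABCF2 in the inhibitor libraries.

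Of the drug efflux pumps ABCB1, ABCG2 and ABCC1, only ABCC1 was abundant. ABCB1 (chromosome 7, 87503633 to 87713323, minus strand; positions are from GENCODE 29 on GRCh38), which encodes P-glycoprotein, was listed at 0 in 8 of 12 libraries and at no more than 0.0324 TPM in the rest. ABCG2 (chromosome 4, 88090264 to 88231322, minus strand), the breast cancer resistance protein, lay just inside the level, at 1 TPM or more in 4 libraries. ABCC2, a pump of the hepatocyte's canalicular membrane, lay just outside it, at 0.400 to 1.07 TPM. It had 1.07 and 0.991 TPM with overexpression, against 0.629 and 0.536 TPM in Vector. ABCC1 (chromosome 16, 15949577 to 16143074, plus strand) ran between 42.4 and 56.6 TPM.

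Of the 23 genes below the level, 4 were listed at 0 in every library (ABCA4, ABCC12, ABCC13 and ABCG5), 13 were listed at 0 in some libraries and 6 were above 0 in every library. ABCC2 and ABCA2 reached 0.5 TPM in at least 1 library, and the other 17 that were above 0 in any library stayed under it. ABCA2, an endolysosomal lipid transporter best known in brain, had 0.984 and 0.844 TPM with overexpression, against 0.150 and 0.164 TPM in Vector. These groups did not overlap. Here and below, the share of all genes whose groups did not overlap was not computed, so such separation only describes the values. Genes below the level were tested only in a fit with no filter on low values, which held 20633 genes and 19 of these 23. There ABCA2 (0.73, SE 0.0466, adjusted p = 5.0e-05) and ABCC2 (0.36, SE 0.0751, adjusted p = 0.012) were called higher with overexpression, beside 15.8% of all tested genes. ABCA2 was also called higher with the hairpins (0.19, SE 0.0404, adjusted p = 0.0093), beside 15.5%, at 0.220 and 0.240 TPM with sh1 and 0.182 and 0.175 TPM with sh2, against 0.0545 and 0.0553 TPM in shControl. None of the 19 was called with the inhibitor. Some closely spaced genes differed in level, while others, such as ABCB4 and ABCB1 or ABCG5 and ABCG8, were both below 1 TPM throughout. ABCC6 lies 5.85 kb from ABCC1 and had a median of 0 TPM, beside 50.5 TPM for ABCC1. In the row of 5 subfamily A genes on chromosome 17, ABCA8, ABCA9, ABCA6 and ABCA10 stayed at or under 0.266 TPM, while ABCA5, which overlaps ABCA10 on the same strand, had a median of 1.67 TPM. GENCODE names 3 pseudogenes of ABCB10 and 2 of ABCF2, none with a row here, so reads from these copies cannot be told apart from the genes.

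In each comparison the log2 change of TPM + 1 was tested with limma over 12731 genes, and a gene was called when its Benjamini-Hochberg adjusted p was below 0.05. Adding 1 makes the changes of low genes look smaller. With the hairpins 10 of 23 ABC genes were higher and 6 lower (43.5% and 26.1%), beside 26.2% and 20.2% of all tested genes. Taken singly against shControl, sh1 had 10 higher and 6 lower, beside 23.7% and 21.3% of all tested genes, and sh2 had 9 and 3, beside 22.0% and 13.4%. With the inhibitor 11 were higher and 3 lower (47.8% and 13.04%), beside 28.0% and 11.8% of all tested genes. With overexpression 10 were higher and 1 lower (43.5% and 4.35%), beside 26.6% and 10.3% of all tested genes. The median change of the 23 genes was 0.10 with the hairpins, 0.20 with the inhibitor and 0.14 with overexpression, beside 0.03, 0.08 and 0.08 for all tested genes. On this scale no ABC gene was called with a 2-fold change in the 3 comparisons, but ABCA1 passed it with the inhibitor when 0.5 or 0.1 TPM was added in place of 1 (-1.11 and -1.31). With the shControl and Vector columns exchanged it was passed by ABCA1 with the inhibitor and by ABCA7 with overexpression (-1.49 and 1.25). The hairpin and inhibitor comparisons share their controls. Set against the hairpin libraries directly, the inhibitor libraries were higher in 9 ABC genes and lower in 7, beside 30.9% and 21.6% of all tested genes. The hairpin effect differed from the overexpression effect in 2 ABC genes, ABCB6 among them, beside 29.9% of all tested genes, and in 1 without sh2 replicate 2, shControl replicate 1, Vector replicate 1 or either overexpression library. Without shControl replicate 1, the number lower with the hairpins was 3.

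The balance of calls moved with scaling. In overexpression 72.1% of all calls were higher, against 43.2% with median-of-ratios scaling and 46.3% under quantile normalization. For the inhibitor these shares were 70.3%, 55.9% and 51.9%, and for Vector against shControl 73.1%, 42.99% and 48.4%. Quantile normalization shifted the median of all genes by -0.10 in overexpression and by -0.11 between the controls. The ABC counts in overexpression became 7 higher and 4 lower under median-of-ratios scaling, beside 1987 and 2614 of all 12731 tested genes. Under quantile normalization they became 7 higher and 5 lower, beside 2210 and 2566.

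The controls themselves differed in this family. Vector was higher than shControl in 6 ABC genes and lower in 2, beside 21.4% and 7.86% of all tested genes. ABCA7 had 8.19 and 9.12 TPM in Vector, against 5.28 and 5.22 TPM in shControl (0.63, SE 0.0793, adjusted p = 5.2e-04). Among the others higher in Vector, ABCA1 differed by 0.56, ABCG1 by 0.38, ABCA3 by 0.31 and ABCC10 by 0.22, and ABCF2 (-0.17) and ABCF3 (-0.13) were lower in Vector. ABCB6 was called lower in Vector under median-of-ratios scaling and quantile normalization (-0.19 and -0.19). The calls of ABCC10 and ABCF3 were lost without shControl replicate 1 (0.11 and -0.12) and without Vector replicate 1 (0.25 and -0.14) or 2 (0.19 and -0.11). They were also lost when only the groups compared were fitted (0.22 and -0.13). The ABCC10 call was lost as well under median-of-ratios scaling (0.13), under quantile normalization (0.07) and with no filter (0.22). The ABCF3 call was lost as well without shControl replicate 2, with no variance trend and with replicate number in the fit (-0.13 in each). The control columns of the table carry library numbers and no group name, so the comparisons were also made with the controls exchanged. In the same direction, 3 of the higher and 4 of the lower calls with the hairpins were then made again, as were 7 and 3 with the inhibitor and 10 and 1 with overexpression. In these fits 2369 of all 12731 tested genes were higher and 3748 lower with the hairpins, and 3305 and 3434 with the inhibitor. With overexpression 5721 were higher and 1747 lower, and the median of all genes was 0.18. The share of all genes that kept their call is not given here.

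**Figure D2:**
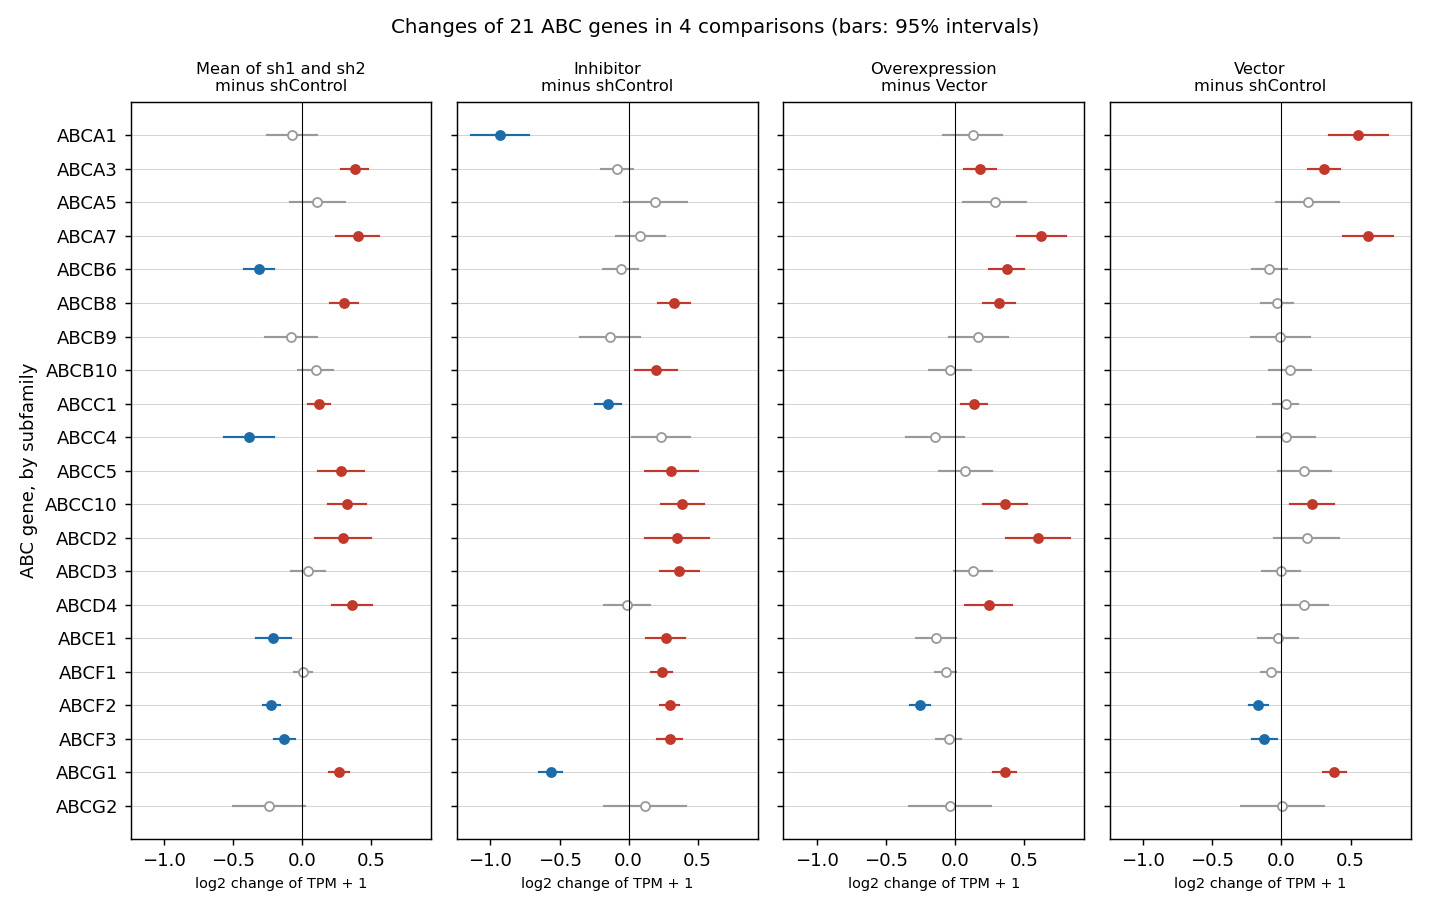
Log2 change of TPM + 1 for 21 of the 23 expressed ABC genes, by subfamily, in 4 comparisons. Points are limma estimates, bars are 95% intervals, and colour marks the calls. The inhibitor panel holds the furthest point, ABCA1 at -0.93, and the panel of Vector against shControl shows ABCA7 at 0.63.

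Lipid exporters of subfamilies A and G included the furthest change. ABCA1 (chromosome 9, 104781002 to 104928237, minus strand), which passes cholesterol and phospholipid to apolipoprotein A-I, had 1.31 and 1.35 TPM with the inhibitor, against 3.28 and 3.61 TPM in shControl. Both inhibitor libraries lay below every other library. The log2 change was -0.93 (SE 0.0943, adjusted p = 8.7e-05), and -1.49 with the controls exchanged. ABCA1 had 3.58 and 2.95 TPM with sh1 and 3.19 and 3.19 TPM with sh2. Those values overlapped with shControl (-0.07, 95% interval -0.26 to 0.11), and with the controls exchanged the hairpin libraries were called lower (-0.63, adjusted p = 2.2e-04). The overexpression libraries had 6.24 and 6.05 TPM, against 5.17 and 5.93 TPM in Vector (0.13, 95% interval -0.08 to 0.34). This change was called only with the controls exchanged (0.68).

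ABCG1 (chromosome 21, 42199689 to 42297244, plus strand), which moves cholesterol to high-density lipoprotein, also fell with the inhibitor. It had 30.7 and 29.8 TPM with the inhibitor, against 46.5 and 44.01 TPM in shControl (-0.57, SE 0.0373, adjusted p = 6.8e-06). In overexpression it stood at 76.9 and 75.7 TPM, against 58.4 and 60.1 TPM in Vector (0.36, SE 0.0373, adjusted p = 1.1e-04). The inhibitor libraries were the lowest of the 12 and the overexpression libraries the highest. ABCG1 had 55.3 and 54.1 TPM with sh1 and 54.96 and 54.5 TPM with sh2, above shControl (0.27, adjusted p = 1.4e-04) but below Vector. That change turned to -0.11 (adjusted p = 0.017) with the controls exchanged. The inhibitor libraries differed from the hairpin libraries by -0.83 for ABCG1 and by -0.86 for ABCA1 (adjusted p = 1.3e-07 and 2.3e-05).

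ABCA7 and ABCA3 were called higher with the hairpins and with overexpression, and were not called with the inhibitor. ABCA7 (chromosome 19, 1040101 to 1065572, plus strand), a phospholipid exporter, had 14.1 and 13.7 TPM with overexpression, against 8.19 and 9.12 TPM in Vector (0.63, SE 0.0793, adjusted p = 3.3e-04). It had 7.12 and 8.096 TPM with sh1 and 6.92 and 6.93 TPM with sh2, against 5.28 and 5.22 TPM in shControl (0.40, SE 0.0687, adjusted p = 0.0012). Neither pair of groups overlapped. With the controls exchanged the hairpin change turned to -0.23 (adjusted p = 0.022), and the inhibitor value turned to -0.54 (adjusted p = 3.6e-04) where it was 0.08 before.

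ABCA3, which loads surfactant lipid into lamellar bodies in lung, had 14.9 and 14.95 TPM with sh1 and 13.2 and 12.7 TPM with sh2, against 10.7 and 10.2 TPM in shControl (0.38, SE 0.0445, adjusted p = 1.2e-04). The hairpin libraries did not overlap with shControl but did with Vector, and the call was lost with the controls exchanged (0.07). Overexpression gave 15.1 and 15.2 TPM, against 12.9 and 13.6 TPM in Vector (0.18, adjusted p = 0.02). That call was lost without either overexpression library (0.19 and 0.18), without Vector replicate 1 (0.15), and under median-of-ratios scaling (0.08) and quantile normalization (0.07). It was also lost when only the groups compared were fitted (0.18). ABCA3 was at 10.01 and 9.57 TPM with the inhibitor (-0.09, not called), and it was called lower with the controls exchanged (-0.40, adjusted p = 1.7e-04). ABCA5 was not called with the hairpins (0.11), the inhibitor (0.19) or overexpression (0.29, adjusted p = 0.052). It was called higher with overexpression when no variance trend was fitted (0.29, adjusted p = 0.016) and with the controls exchanged (0.48, adjusted p = 0.003).

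**Figure D3:**
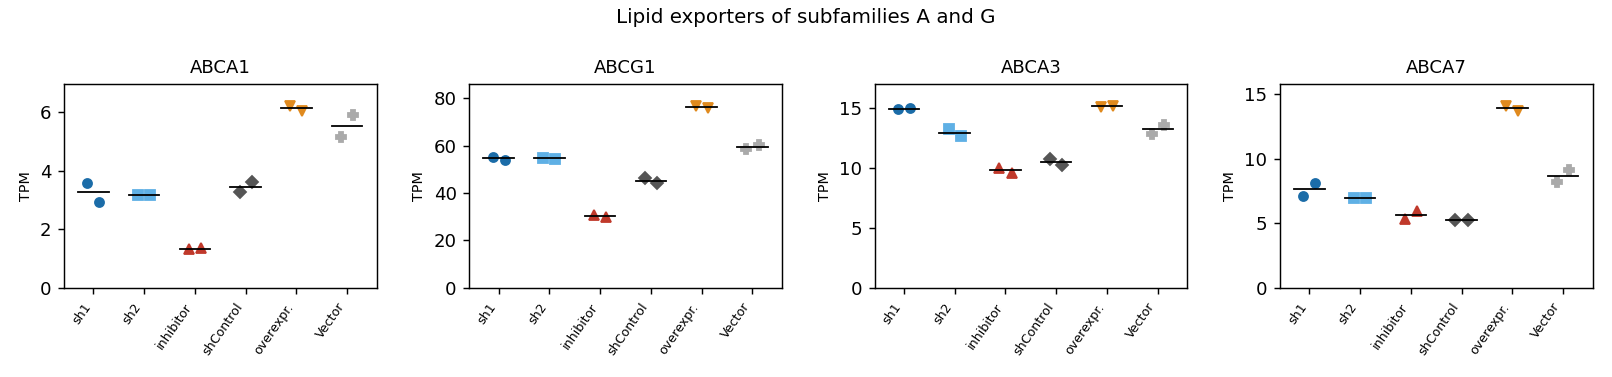
TPM of 4 lipid exporters in every library, with a line at each group mean and axes from 0. The inhibitor libraries are lowest for ABCA1 (1.31 and 1.35 TPM) and ABCG1 (30.7 and 29.8 TPM), and the overexpression libraries are highest for ABCA7 (14.1 and 13.7 TPM).

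The liver X receptor and sterol efflux list, with 16 genes tested, holds genes that act around ABCA1 and ABCG1. With the inhibitor it had 2 higher and 7 lower (median -0.04), beside a median of 0.08 for all genes. SREBF1, which encodes a transcription factor of lipid synthesis, stood at 69.7 ± 5.61 TPM with the inhibitor and 124 ± 1.92 TPM in shControl (mean ± SD, n = 2 each; -0.83, adjusted p = 2.9e-06). The phospholipid transfer protein gene PLTP (-0.56) also fell. With the hairpins the list had 6 higher and 1 lower (median 0.13), beside 0.03 for all genes, with the lysosomal cholesterol carrier NPC2 (0.61), NPC1 (-0.32) and NR1H2 (0.31), which encodes liver X receptor beta, furthest. With overexpression it had 3 higher and 4 lower (median -0.04), beside 0.08, with SOAT1 (-0.37) and RXRB (0.32) among the calls. Vector against shControl gave this list 7 higher and 0 lower (median 0.14), beside 21.4% and 7.86% of all tested genes. The shares of all tested genes called higher and lower were 26.2% and 20.2% with the hairpins. They were 28.0% and 11.8% with the inhibitor and 26.6% and 10.3% with overexpression. Exchanged controls gave 3 higher and 6 lower with the hairpins (median -0.07), beside 2369 and 3748 of all 12731 tested genes (median -0.05). They gave 3 higher and 10 lower with the inhibitor (median -0.26), beside 3305 and 3434 (median -0.01). For overexpression these counts were 9 and 4 (median 0.18), beside 5721 and 1747 (median 0.18). NPC2 was then called lower with the hairpins (-0.21, adjusted p = 0.017).

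In subfamily C, which holds the drug and organic anion pumps, ABCC1, ABCC5 and ABCC10 were called higher with the hairpins and ABCC4 lower. ABCC10, a pump with taxanes among its substrates, had 10.5 and 10.2 TPM with sh1 and 10.01 and 10.1 TPM with sh2, against 7.28 and 8.62 TPM in shControl (0.33, SE 0.0609, adjusted p = 0.0019). It had 10.6 and 10.8 TPM with the inhibitor (0.39, adjusted p = 0.0021). Its overexpression values were 12.4 and 12.4 TPM, against 9.17 and 9.62 TPM in Vector (0.36, adjusted p = 0.0034). In none of the 3 comparisons did the groups overlap, which was not counted over all genes. The hairpin and inhibitor calls were lost with the controls exchanged (0.11 and 0.17).

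ABCC5, an exporter of cyclic nucleotides and other organic anions, had 9.92 and 9.54 TPM with sh1, 10.1 and 10.2 TPM with sh2 and 9.44 and 10.9 TPM with the inhibitor, against 7.78 and 8.24 TPM in shControl. The change was 0.28 with the hairpins (adjusted p = 0.012) and 0.31 with the inhibitor (adjusted p = 0.017), and no group overlapped with shControl. Both calls were lost with the controls exchanged (0.11 and 0.14) and without shControl replicate 1 (0.24 and 0.27). The inhibitor call was also lost without inhibitor replicate 2 (0.21) and when only the groups compared were fitted (0.31). With overexpression ABCC5 was not called (0.07, 95% interval -0.12 to 0.27), except with the controls exchanged (0.24, adjusted p = 0.036).

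ABCC4 exports cyclic nucleotides and prostaglandins. It had 4.85 and 4.74 TPM with sh1 and 4.85 and 5.91 TPM with sh2, against 6.705 and 7.15 TPM in shControl. The groups did not overlap (-0.38, SE 0.0808, adjusted p = 0.0038), and the change was -0.41 with the controls exchanged. With the inhibitor ABCC4 had 8.81 and 7.85 TPM, above every other library, but the change was not called (0.23, adjusted p = 0.073, 95% interval 0.02 to 0.44). The inhibitor libraries differed from the hairpin libraries by 0.62 (SE 0.0808, adjusted p = 1.7e-04). With overexpression it had 6.19 and 6.47 TPM, against 6.71 and 7.499 TPM in Vector (-0.14, not called), and it was called lower under quantile normalization (-0.30).

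ABCC1, the most abundant pump, differed by small amounts. It had 42.4 and 45.1 TPM with the inhibitor, against 49.3 and 48.02 TPM in shControl (-0.15, SE 0.0409, adjusted p = 0.016). It had 56.6 and 53.6 TPM with sh1 and 50.9 and 51.3 TPM with sh2 (0.12, SE 0.0354, adjusted p = 0.018). The overexpression libraries had 54.2 and 55.2 TPM, against 50.2 and 49.2 TPM in Vector (0.14, SE 0.0409, adjusted p = 0.027). The inhibitor libraries were the lowest of the 12, and they differed from the hairpin libraries by -0.27 (adjusted p = 1.6e-04). With sh1 alone the change was called (0.18, adjusted p = 0.0065) and with sh2 alone it was not (0.07, adjusted p = 0.22). The hairpin call was lost without either shControl library (0.14 and 0.10), under median-of-ratios scaling (0.09) and with the controls exchanged (0.09). The overexpression call was lost without overexpression replicate 1 or 2 (0.15 and 0.12), without Vector replicate 1 or 2 (0.15 and 0.12) and under median-of-ratios scaling and quantile normalization (0.03 and 0.07). The inhibitor call was lost without inhibitor replicate 1 (-0.11) or shControl replicate 1 (-0.13) and when only the groups compared were fitted (-0.15).

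ABCG2 had 0.685 and 0.687 TPM with sh1 and 0.837 and 0.514 TPM with sh2, against 1.04 and 0.919 TPM in shControl. All 4 hairpin libraries were below both shControl libraries, but the change was not called (-0.24, adjusted p = 0.12, 95% interval -0.50 to 0.02), except under quantile normalization (-0.33). With the inhibitor it had 1.07 and 1.23 TPM (0.12, 95% interval -0.18 to 0.42). In overexpression it stood at 1.100 and 0.790 TPM, against 0.990 and 0.985 TPM in Vector (-0.04, 95% interval -0.33 to 0.26). Neither was called.

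**Figure D4:**
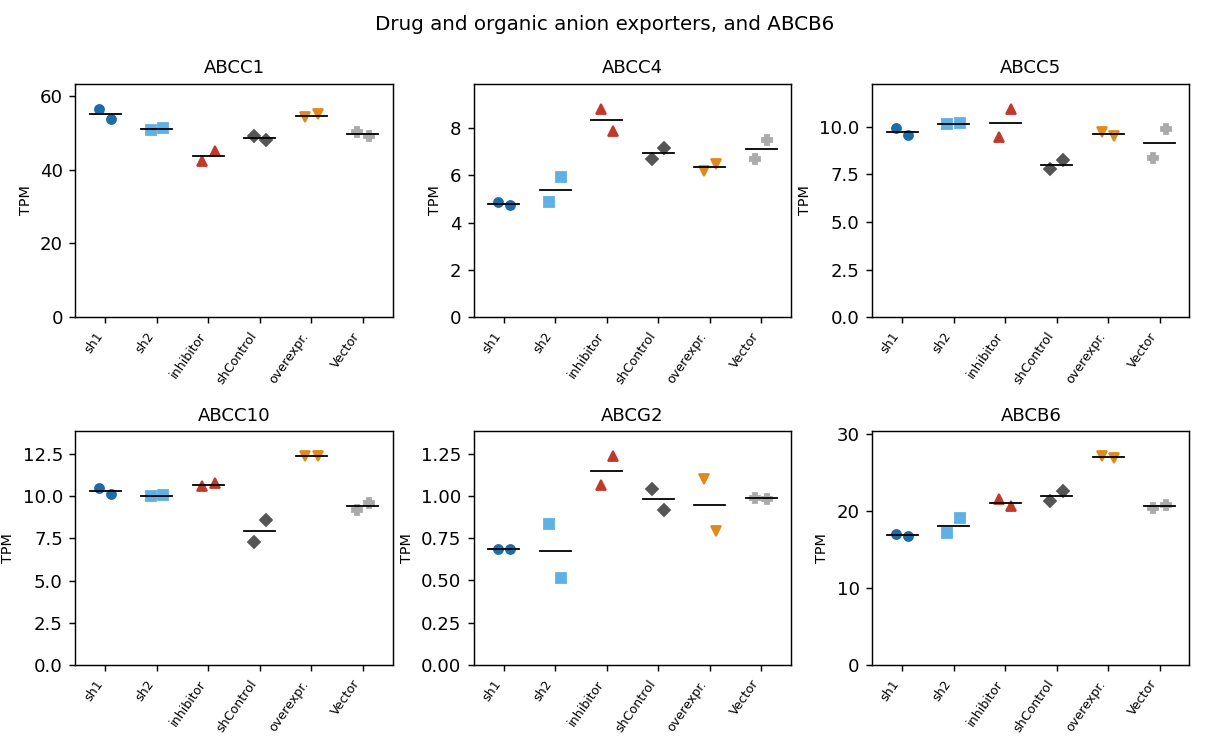
TPM of 5 drug and organic anion exporters and of ABCB6 in every library, with a line at each group mean and axes from 0. ABCC4 is lowest with the hairpins (4.85 and 4.74 TPM with sh1) and highest with the inhibitor (8.81 and 7.85 TPM), and ABCB6 is highest with overexpression (27.1 and 26.8 TPM).

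Drug response genes outside the family were taken from a list of 17, of which 15 were tested. With the hairpins it had 3 higher and 7 lower (median -0.17), beside 0.03 for all genes. The major vault protein gene MVP stood at 34.1 ± 3.14 TPM with the hairpins and 23.3 ± 0.567 TPM in shControl (mean ± SD, n = 4 and 2; 0.53, adjusted p = 5.8e-05), while the organic cation exporter SLC47A1 (-0.47) fell. With the inhibitor the list had 3 higher and 1 lower (median 0.04), beside 0.08, led by the glutathione synthesis gene GCLC (0.46), the glutathione reductase gene GSR (0.30) and GSTK1 (0.29). With overexpression it had 1 higher and 3 lower (median -0.05), beside 0.08, and SLC47A1 (-0.41), GSTP1 (-0.39) and GSTO1 (-0.22) fell. Vector against shControl gave 4 higher and 2 lower (median 0.08), beside 21.4% and 7.86% of all tested genes. The shares of all tested genes called higher and lower were 26.2% and 20.2% with the hairpins. They were 28.0% and 11.8% with the inhibitor and 26.6% and 10.3% with overexpression. Exchanged controls gave 2 higher and 6 lower with the hairpins (median -0.15), beside 2369 and 3748 of all 12731 tested genes (median -0.05). They gave 4 higher and 4 lower with the inhibitor (median -0.04), beside 3305 and 3434 (median -0.01). For overexpression these counts were 5 and 6 (median 0.04), beside 5721 and 1747 (median 0.18). MVP was then called lower with the hairpins (-0.15, adjusted p = 0.049), and GSTK1 was not called with the inhibitor (0.08).

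A second list held transcription factors reported to act on drug pump genes, 16 tested. With the hairpins it had 6 higher and 4 lower (median 0.08), with FOXO3 (0.64), FOXO1 (-0.52) and CTNNB1 (0.48) furthest. With the inhibitor it had 5 higher and 1 lower (median 0.08), and the calls furthest from 0 were FOXO3 (0.33), NFE2L2 (0.23) and ARNT (-0.16). With overexpression it had 2 higher and 2 lower (median 0.06), and those calls were FOXO3 (0.24), RELA (0.15) and NFKB1 (-0.13). The medians of all genes were 0.03, 0.08 and 0.08. The shares of all tested genes called higher and lower were 26.2% and 20.2% with the hairpins. They were 28.0% and 11.8% with the inhibitor and 26.6% and 10.3% with overexpression. Vector against shControl gave 3 higher and 2 lower (median 0.09), beside 21.4% and 7.86% of all tested genes. Exchanged controls gave 4 higher and 5 lower with the hairpins (median -0.09), beside 2369 and 3748 of all 12731 tested genes (median -0.05). They gave 3 higher and 6 lower with the inhibitor (median -0.07), beside 3305 and 3434 (median -0.01). For overexpression these counts were 8 and 2 (median 0.17), beside 5721 and 1747 (median 0.18). With the inhibitor NFE2L2 was then called lower (-0.13) and FOXO3 was not called (-0.10).

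In subfamily B, ABCB6 changed in opposite directions with the hairpins and the cDNA. ABCB6 (chromosome 2, 219209766 to 219219017, minus strand), a porphyrin transporter, had 17.05 and 16.7 TPM with sh1 and 17.1 and 19.1 TPM with sh2, against 21.3 and 22.6 TPM in shControl (-0.31, SE 0.0486, adjusted p = 6.6e-04). Overexpression gave 27.1 and 26.8 TPM, against 20.4 and 20.8 TPM in Vector (0.37, SE 0.0562, adjusted p = 8.6e-04). The hairpin libraries were the lowest of the 12 and the overexpression libraries the highest. Both calls were made again with the controls exchanged (-0.23 and 0.29), and the hairpin and overexpression effects differed by -0.69 (SE 0.0743, adjusted p = 1.7e-04). With the inhibitor ABCB6 had 21.6 and 20.6 TPM (-0.06, not called), and it was called lower under quantile normalization (-0.15).

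ABCB8, a protein of the mitochondrial inner membrane, was higher in all 3 comparisons. It had 19.7 and 20.2 TPM with sh1, 19.2 and 19.2 TPM with sh2 and 19.4 and 20.4 TPM with the inhibitor, against 15.1 and 16.2 TPM in shControl. The changes were 0.31 (adjusted p = 4.7e-04) and 0.33 (adjusted p = 0.001). Its overexpression values were 19.2 and 19.3 TPM, against 15.7 and 14.8 TPM in Vector (0.32, adjusted p = 0.0014). No group overlapped with its control, and the 3 calls were made again with the controls exchanged.

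ABCB10, which acts in heme synthesis, had 44.7 and 42.98 TPM with the inhibitor, against 38.1 and 37.9 TPM in shControl (0.20, adjusted p = 0.038). That call was lost without inhibitor replicate 1 or 2 (0.17 and 0.23), without shControl replicate 1 or 2 (0.20 and 0.20), under median-of-ratios scaling and quantile normalization (0.14 and 0.08) and with the controls exchanged (0.14). It was also lost with no filter and with no variance trend (0.20 in each). ABCB9, a lysosomal peptide transporter, was not called with the hairpins (-0.08), the inhibitor (-0.13) or overexpression (0.17).

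Mitochondrial heme and iron-sulfur genes, 21 tested, had 5 higher and 6 lower (median -0.0062) with the hairpins, 8 higher and 1 lower (median 0.12) with the inhibitor and 9 higher and 2 lower (median 0.10) with overexpression, beside medians of 0.03, 0.08 and 0.08 for all genes. Of all tested genes, 26.2% were called higher and 20.2% lower with the hairpins. These shares were 28.0% and 11.8% with the inhibitor and 26.6% and 10.3% with overexpression. The iron-sulfur scaffold gene ISCU stood at 338 ± 7.46 TPM with the hairpins and 387 ± 9.57 TPM with the inhibitor, against 266 ± 1.67 TPM in shControl (mean ± SD, n = 4, 2 and 2; 0.34 and 0.54). The mitochondrial iron importer SLC25A37 (-0.31) and GLRX5 (-0.28) fell with the hairpins. The heme synthesis genes UROS (0.57) and CPOX (0.55) rose with the inhibitor, and FDXR (0.54), ALAD (0.37) and UROS (0.34) rose with overexpression. The controls themselves gave 5 higher and 1 lower (median -0.02) for Vector against shControl, beside 21.4% and 7.86% of all tested genes. Exchanged controls gave 3 higher and 6 lower with the hairpins (median -0.05), beside 2369 and 3748 of all 12731 tested genes (median -0.05). They gave 9 higher and 4 lower with the inhibitor (median 0.12), beside 3305 and 3434 (median -0.01). For overexpression these counts were 13 and 3 (median 0.18), beside 5721 and 1747 (median 0.18).

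ABCD2, a fatty acid transporter of the peroxisome membrane, had 3.06 and 2.88 TPM with overexpression, against 1.52 and 1.71 TPM in Vector (0.60, SE 0.103, adjusted p = 0.0018). It had 2.03 and 1.62 TPM with sh1, 1.71 and 1.96 TPM with sh2 and 1.91 and 1.97 TPM with the inhibitor, against 1.34 and 1.26 TPM in shControl. No group overlapped with its control. The hairpin change of 0.29 (adjusted p = 0.023) was no longer called without sh1 replicate 1 (0.24), sh2 replicate 2 (0.26) or shControl replicate 1 or 2 (0.32 and 0.27). The same held under quantile normalization (0.21), with the controls exchanged (0.11) and when only the groups compared were fitted (0.29). The inhibitor change of 0.35 (adjusted p = 0.023) was no longer called without inhibitor replicate 1 or 2 (0.37 and 0.34), shControl replicate 1 or 2 (0.38 and 0.33), or with the controls exchanged (0.17).

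ABCD3, the peroxisomal membrane protein PMP70, had 14.5 and 14.4 TPM with the inhibitor, against 10.5 and 11.5 TPM in shControl (0.37, SE 0.0623, adjusted p = 0.0015). Both inhibitor values were above every other library. It was not called with the hairpins (0.04) or with overexpression (0.13). ABCD4, which acts in cobalamin export from lysosomes, had 11.5 and 10.8 TPM with sh1 and 11.6 and 12.9 TPM with sh2, against 8.79 and 8.998 TPM in shControl (0.36, adjusted p = 0.0016). Its inhibitor values of 8.82 and 8.79 TPM overlapped with shControl (-0.01, 95% interval -0.18 to 0.15). With overexpression ABCD4 had 13.1 and 11.3 TPM, against 10.02 and 10.2 TPM in Vector (0.24, adjusted p = 0.029). That call was lost without overexpression replicate 1 (0.14), without Vector replicate 1 or 2 (0.23 and 0.25), and under median-of-ratios scaling and quantile normalization (0.14 and 0.14). It was also lost with no filter and when only the groups compared were fitted (0.24 in each).

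The peroxisome and fatty acid oxidation list, 18 genes tested, had 6 higher and 2 lower (median 0.11) with the hairpins, 5 higher and 2 lower (median 0.06) with the inhibitor and 6 higher and 2 lower (median 0.12) with overexpression. The medians of all genes were 0.03, 0.08 and 0.08. Of all tested genes, 26.2% were called higher and 20.2% lower with the hairpins. These shares were 28.0% and 11.8% with the inhibitor and 26.6% and 10.3% with overexpression. The carnitine acetyltransferase gene CRAT (0.66), LMBRD1 (0.49), whose product works with ABCD4 in lysosomes, and SLC27A2 (-0.37) were furthest with the hairpins. With the inhibitor these were ACOX3 (0.28), the catalase gene CAT (0.27) and ACAA1 (0.25), and with overexpression CAT (0.49), PEX7 (0.49) and MMACHC (-0.47). For Vector against shControl the list had 5 higher and 1 lower (median 0.11), beside 21.4% and 7.86% of all tested genes. Exchanged controls gave 4 higher and 5 lower with the hairpins (median -0.03), beside 2369 and 3748 of all 12731 tested genes (median -0.05). They gave 2 higher and 3 lower with the inhibitor (median -0.02), beside 3305 and 3434 (median -0.01). For overexpression these counts were 11 and 3 (median 0.21), beside 5721 and 1747 (median 0.18). With the hairpins CRAT was then called lower (-0.30, adjusted p = 0.0069), and LMBRD1 (0.09) and SLC27A2 (-0.13) were not called. With the inhibitor ACOX3 (0.05) and CAT (0.17) were not called.

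All 4 soluble ABC genes of translation were higher with the inhibitor, beside 28.0% of all tested genes. ABCF2 (chromosome 7, 151212490 to 151227230, minus strand), a relative of yeast ARB1, had 151 and 151 TPM with the inhibitor, against 125 and 120.0 TPM in shControl (0.30, SE 0.0318, adjusted p = 1.2e-04). It had 103 and 105 TPM with sh1 and 105 and 107 TPM with sh2 (-0.22, SE 0.0275, adjusted p = 1.6e-04). The overexpression libraries had 90.5 and 92.6 TPM, against 110.4 and 108 TPM in Vector (-0.25, SE 0.0318, adjusted p = 3.2e-04). The inhibitor libraries were the highest of the 12 and the overexpression libraries the lowest. The inhibitor and overexpression calls were made again with the controls exchanged (0.46 and -0.42), and the hairpin call was lost (-0.06).

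ABCF3 had 53.7 and 52.9 TPM with the inhibitor, against 43.4 and 42.9 TPM in shControl (0.30, adjusted p = 4.7e-04). ABCF1 (chromosome 6, 30571376 to 30597179, plus strand) had 88.9 and 88.4 TPM with the inhibitor, against 75.6 and 74.3 TPM in shControl (0.24, adjusted p = 5.3e-04). For both genes the inhibitor libraries lay above every other library. ABCF3 had 38.3 and 39.7 TPM with sh1 and 38.6 and 41.3 TPM with sh2 (-0.13, adjusted p = 0.014), a call lost without shControl replicate 1 or 2 (-0.12 and -0.14) and with the controls exchanged (-0.0022). Taken singly, sh1 was called for ABCF3 (-0.14, adjusted p = 0.017) and sh2 was not (-0.11, adjusted p = 0.058). ABCF1 was not called with the hairpins (0.0089, 95% interval -0.06 to 0.07), except with the controls exchanged (0.08, adjusted p = 0.037).

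ABCE1 (chromosome 4, 145097932 to 145129179, plus strand) had 79.03 and 69.01 TPM with the inhibitor, against 61.3 and 61.1 TPM in shControl (0.27, SE 0.0643, adjusted p = 0.0092). It had 50.9 and 46.9 TPM with sh1 and 56.8 and 57.5 TPM with sh2 (-0.21, adjusted p = 0.013). The groups did not overlap. The change was called with sh1 alone (-0.32, adjusted p = 0.0031) and not with sh2 alone (-0.10, adjusted p = 0.28), and the difference between sh2 and sh1 was not called (0.22, adjusted p = 0.11). The hairpin call was lost without shControl replicate 1 or 2 (-0.21 and -0.21). The inhibitor call was lost without inhibitor replicate 1 (0.17), under quantile normalization (0.14) and when only the groups compared were fitted (0.27). With overexpression ABCE1 (-0.14), ABCF1 (-0.07) and ABCF3 (-0.05) were not called. They were called lower under median-of-ratios scaling (-0.25, -0.18 and -0.15) and under quantile normalization (-0.21, -0.13 and -0.14). The inhibitor libraries exceeded the hairpin libraries by 0.52 for ABCF2, 0.48 for ABCE1, 0.42 for ABCF3 and 0.23 for ABCF1.

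**Figure D5:**
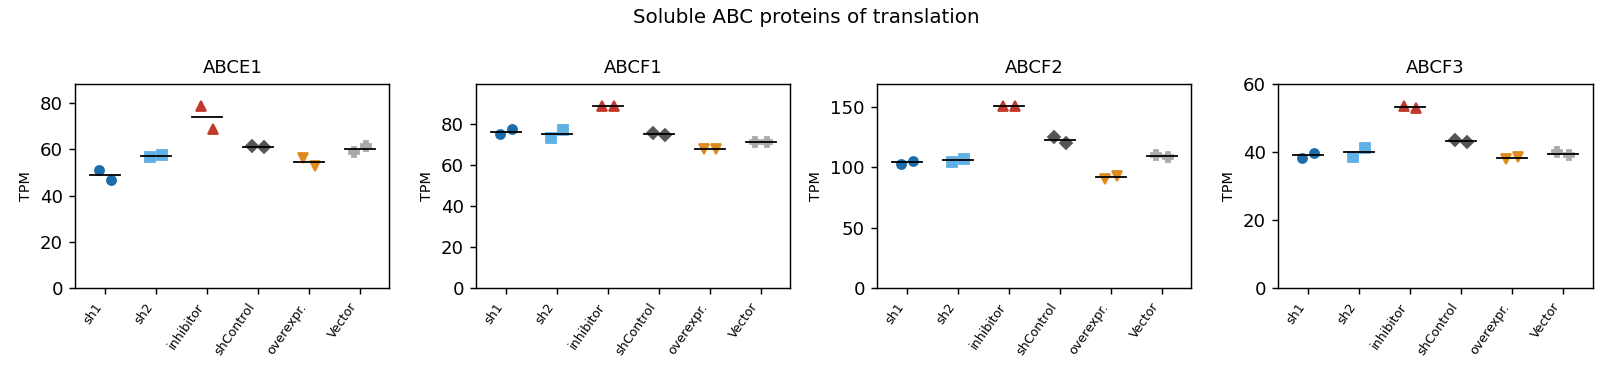
TPM of the 4 soluble ABC genes in every library, with a line at each group mean and axes from 0. The inhibitor libraries are the highest for each gene, at 79.03 and 69.01 TPM for ABCE1 and 151 and 151 TPM for ABCF2.

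A list of partners of these proteins, 14 tested, held genes of translation and ribosome recycling and also genes of cytosolic iron-sulfur assembly, CIAPIN1 among them. It had 9 higher and 0 lower (median 0.17) with the inhibitor, beside 0.08 for all genes. The counts were not split by function. The initiation factor subunit gene EIF2S1 (0.42), CIAPIN1 (0.38) and DENR (0.37) were furthest. With the hairpins the list had 1 higher and 6 lower (median -0.11), beside 0.03. HBS1L, a partner of the ribosome rescue factor PELO, stood at 41.6 ± 3.62 TPM with the hairpins and 55.99 ± 0.380 TPM in shControl (mean ± SD, n = 4 and 2; -0.42), and the termination factor gene GSPT1 (-0.34) and PELO (-0.32) fell. With overexpression the list had 2 higher and 5 lower (median -0.08), beside 0.08, and ETF1 (-0.30) and PELO (-0.29) were furthest. The shares of all tested genes called higher and lower were 28.0% and 11.8% with the inhibitor. They were 26.2% and 20.2% with the hairpins and 26.6% and 10.3% with overexpression. Vector against shControl gave 1 higher and 1 lower (median -0.0043), beside 21.4% and 7.86% of all tested genes. Exchanged controls gave 8 higher and 1 lower with the inhibitor (median 0.18), beside 3305 and 3434 of all 12731 tested genes (median -0.01). They gave 2 higher and 8 lower with the hairpins (median -0.14), beside 2369 and 3748 (median -0.05). For overexpression these counts were 4 and 7 (median -0.12), beside 5721 and 1747 (median 0.18).

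Summed over a subfamily, transcripts of F reached 293 ± 0.663 TPM with the inhibitor and 241 ± 4.99 TPM in shControl (mean ± SD, n = 2 each), and 198 ± 2.05 TPM with overexpression and 219.8 ± 2.26 TPM in Vector. Subfamily A summed to 18.7 ± 0.324 TPM with the inhibitor and 20.7 ± 0.200 TPM in shControl, and to 38.8 ± 0.709 TPM with overexpression and 29.5 ± 1.76 TPM in Vector. Subfamily G summed to 31.4 ± 0.496 TPM with the inhibitor and 46.2 ± 1.83 TPM in shControl. It summed to 77.2 ± 1.07 TPM with overexpression and 60.3 ± 1.22 TPM in Vector. The F sum was highest with the inhibitor and lowest with overexpression, and the A and G sums the reverse. Both controls differed in the A sum, and ABCA1 was the only A gene called with the inhibitor. Mean sums of B, C and D were above the control in both comparisons, though the C libraries overlapped for the inhibitor. Between sh2 and sh1 no ABC gene was called by limma, beside 1.55% of all tested genes.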

How the data were processed

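PolyA-selected RNA of KMS11 cells was sequenced, 2 libraries for each of 6 groups. The authors deposited a table of TPM values per gene. Per the submitters' processing notes, the tools included RSEM 1.3.1, HISAT, DESeq2 1.4.5 and Bowtie2 2.3.4.3, on build GRCh38.p13. The role of each is not given in the sources used here. TPM keeps no depth, so the depth of each library is unknown and no counting interval is given. The control columns were assigned to shControl and Vector from library numbers in the labels, which is an inference.

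The 12731 genes that reached 1 TPM in 2 or more libraries were fitted on log2(TPM + 1) with limma 3.58.1 in R 4.3.3. The fit had 1 mean per group over all 12 libraries, and its variance prior followed the mean level. P-values were adjusted by Benjamini-Hochberg over all fitted genes. The hairpins were averaged with equal weight. Every ABC gene at that level was named apart from some that are not reported here, with ABCB1 whatever its level, and up to 3 called genes per related list. The script was tested on simulated data. Alternatives changed the pseudocount, filter, groups fitted, scaling, variance trend, replicate block, control columns and each library in turn. The members and lists were chosen with earlier results of these data known.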

Additional observations from a re-analysis of the deposited data

Results flagged for a closer look

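The effect of the inhibitor differed from that of the hairpins in 16 of 23 ABC genes, 9 higher and 7 lower, by limma's test of the inhibitor libraries minus the mean of sh1 and sh2, beside 30.9% and 21.6% of all tested genes. These groups are compared directly and no control enters. Those lower with the inhibitor than with the hairpins included ABCA1 (-0.86, adjusted p = 2.3e-05), ABCG1 (-0.83, adjusted p = 1.3e-07), ABCA3 (-0.47, adjusted p = 2.4e-05), ABCD4 (-0.37, adjusted p = 9.8e-04), ABCA7 (-0.32, adjusted p = 0.0036) and ABCC1 (-0.27, adjusted p = 1.6e-04). Those higher with the inhibitor included ABCC4 (0.62, adjusted p = 1.7e-04), ABCF2 (0.52, adjusted p = 7.9e-07), ABCE1 (0.48, adjusted p = 8.3e-05), ABCF3 (0.42, adjusted p = 9.5e-06), ABCG2 (0.36, adjusted p = 0.026), ABCD3 (0.32, adjusted p = 7.7e-04), ABCB6 (0.26, adjusted p = 0.0016) and ABCF1 (0.23, adjusted p = 1.3e-04). The ABCG2 call was lost without sh2 replicate 2 (0.29), inhibitor replicate 1 (0.41) or inhibitor replicate 2 (0.30).

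The hairpin effect differed from the overexpression effect in 2 of 23 ABC genes, beside 29.9% of all tested genes. For ABCB6 the hairpin effect minus the overexpression effect was -0.69 (adjusted p = 1.7e-04). The cause of these differences was not tested.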

How the results depend on the processing

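Of 69 calls or non-calls (23 genes in the hairpin, inhibitor and overexpression comparisons), pseudocounts of 0.1 and 0.5 and the replicate block changed none, and the 5 TPM filter changed none of the 57 values it left. Without a filter 2 calls were lost, and 3 more were made among the 19 genes below the level, and without a variance trend 1 was lost and 1 gained. Fitting only the groups compared lost 7. The median of ratios lost 5 and gained 3, and quantile normalization lost 7 and gained 6. Exchanging the control columns lost 11, gained 9 and turned the sign of 3 that were called in at least 1 fit. These were ABCA7 (-0.23) and ABCG1 (-0.11) with the hairpins, called in both fits, and ABCA7 with the inhibitor (-0.54), not called before. In the difference of hairpin and overexpression effects ABCA3 (-0.43) and ABCF3 (0.17) also turned sign. Both were called only with the controls exchanged in that sign, and neither was called in the main fit. The cause was not tested.

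Counts moved as follows. With the controls exchanged, 4 genes were higher with the hairpins, 7 higher and 5 lower with the inhibitor, and 3 lower with overexpression, and 3 were higher and 9 lower in the difference of hairpin and overexpression effects. Of all 12731 tested genes, 2369 were then higher with the hairpins, 3305 higher and 3434 lower with the inhibitor, and 1747 lower with overexpression. In the difference 1842 were higher and 5763 lower. With the median of ratios 4 ABC genes were lower with overexpression and 4 lower in Vector than shControl, beside 2614 and 2200 of all tested genes. In that difference 2 were higher and 1 lower, beside 2159 and 1724. With quantile normalization 5 ABC genes were lower with overexpression, beside 2566 of all tested genes, and 1 was higher and 1 lower in the difference, beside 2103 and 1941. Without a trend 1 ABC gene was higher in the difference, beside 1339 of all tested genes. In Vector against shControl 1 ABC gene was lower without a trend, with only the groups compared and with the replicate block, beside 848, 755 and 968 of all tested genes. Same-numbered libraries of different groups did not deviate together (15 pairs, correlation -0.104 to 0.14, 1 over 0.1), so the block rests on numbers alone.

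Leaving out 1 library at a time left 7 to 10 genes higher and 3 to 6 lower with the hairpins, 8 to 9 and 2 to 3 with the inhibitor, 7 to 8 and 1 with overexpression, 4 to 5 and 1 in Vector against shControl, 8 to 10 and 7 in the inhibitor libraries against the hairpin libraries, and 0 and 1 to 2 in the difference of hairpin and overexpression effects. The group left with a single library is then assumed to vary like the others. Without shControl replicate 1, 10 of 46 calls or non-calls were lost, and without shControl replicate 2, 6. With 2 libraries a group and depth unknown, genes near 1 TPM such as ABCG2 carry wide intervals.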

Other observations

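Sphingolipid genes, 11 tested, had 7 higher and 1 lower (median 0.19) with the hairpins, 7 higher and 0 lower (median 0.23) with the inhibitor and 2 higher and 0 lower (median 0.01) with overexpression, beside medians of 0.03, 0.08 and 0.08 for all genes. Of all tested genes, 26.2% were called higher and 20.2% lower with the hairpins. These shares were 28.0% and 11.8% with the inhibitor and 26.6% and 10.3% with overexpression. The acid sphingomyelinase gene SMPD1 stood at 17.6 ± 2.12 TPM with the hairpins and 8.23 ± 0.242 TPM in shControl (mean ± SD, n = 4 and 2; 1.002, adjusted p = 4.9e-07). The ceramide synthase gene CERS6 fell with the hairpins (-0.71), and the sphingosine phosphate lyase gene SGPL1 rose (0.51). Vector against shControl gave this list 4 higher and 0 lower (median 0.14), beside 21.4% and 7.86% of all tested genes. Exchanged controls gave 3 higher and 1 lower with the hairpins (median 0.01), beside 2369 and 3748 of all 12731 tested genes (median -0.05). They gave 2 higher and 2 lower with the inhibitor (median -0.03), beside 3305 and 3434 (median -0.01). For overexpression these counts were 5 and 0 (median 0.13), beside 5721 and 1747 (median 0.18).

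ABC proteins under other symbols were the peptide transporter genes TAP1 and TAP2, which load antigen for presentation, and CFTR, which did not reach the level for testing. TAP1 was higher with the hairpins (0.21) and lower with the inhibitor (-0.26) and with overexpression (-0.33). TAP2 was lower with the hairpins (-0.16) and with overexpression (-0.30) and was not called with the inhibitor (-0.09). With the controls exchanged TAP2 was not called with the hairpins (0.009).

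Outside the symbol rule, 5 more rows of the table have ABC names. ABCA11P ran from 1.46 to 3.18 TPM and was not called with the hairpins (-0.34, adjusted p = 0.084), the inhibitor (0.22) or overexpression (0.11). ABCA17P ran from 0.308 to 0.812 TPM, ABCC6P2 reached 0.178 TPM, and ABCC6P1 and ABCC5-AS1 were listed at 0 throughout.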
